A study of Oryza sativa with 6 samples.

Results

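The 100 genes described here are rows named for translation initiation and elongation factors, taken from the 55986 rows of a deposited expression table of rice grain. They are the rows whose leading description names a translation initiation factor, elongation factor 1, elongation factor 2 or elongation factor Tu. Messenger RNA was sequenced from grains of the mature period, in 3 libraries of the wild type Zhenong 34 and 3 libraries of the mutant sg34. The labels name neither the altered gene of sg34 nor any treatment, and both lines share tissue and stage. Whether each library stands for its own plant is not in the labels; the p-values therefore reflect the scatter of these libraries, which may be technical. Values of a line are given throughout in the order of replicates 1, 2 and 3.

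Initiation factors, written eIF in the cytosol of eukaryotes, bring the first transfer RNA, the messenger RNA cap and the small ribosomal subunit together. eIF2 carries the initiator transfer RNA and is recharged by eIF2B, eIF3 is a large scaffold on the small subunit, and eIF4E with eIF4G binds the cap. During elongation EF1-alpha delivers each further transfer RNA, and EF2 moves the ribosome along. The EF1-beta and EF1-delta subunits recharge EF1-alpha with GTP, with EF1-gamma as a scaffold subunit. Plastids and mitochondria use bacterial-type factors, among them IF-1, IF-2, IF-3 and EF-Tu. Grain fills by massive synthesis of storage protein, which draws on this machinery.

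Names were checked against the protein domains given in the same table. For 83 of the 100 rows a domain typical of the named factor was listed, and for 17 rows none was. Of those 17 rows, 15 carried the name IF-2. In fact, of 16 rows named only IF-2, 1 had an IF-2 domain, and the nearest protein given for 4 of them was a retrotransposon protein. Another 3 rows were transcription elongation factor 1 homologs, which act in transcription and entered through the wording of the rule. LOC_Os03g21770, named for a kinase of eIF2-alpha, entered in the same way and was listed at 0 in every library. None of the 100 rows was named eIF1, eIF4A or eIF4B, so the member sums leave those factors out.

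Abundance was deposited as TPM, a share of the library corrected for transcript length, so levels of different genes can be compared. TPM keep no depth, so the sequencing depth is unknown. A row entered the test when 3 or more libraries reached 1 TPM, which kept 74 of the 100 members. Of the other 26, 13 were listed at 0 in all 6 libraries, among them LOC_Os07g13230 and LOC_Os07g13210, named eIF5A, and LOC_Os07g49220, named eIF2-alpha. The remaining 13 had mean TPM of at most 0.713.

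Wild type replicate 1 stood apart before any test. Glutelin and prolamin storage protein genes, the markers of endosperm, took 4.16% of its TPM. The other wild type libraries gave 30.3% and 23.4% to them, and the sg34 libraries 35.4%, 34.6% and 26.6%. Of the 44 rows in that marker list, 36 to 43 were above 0 in each library. The oil body marker list, 4 oleosin rows, took 0.105% in wild type replicate 1 and 0.225% to 0.435% elsewhere. Granule-bound starch synthase, with 2 rows, took 0.218% to 0.334% in the wild type and 0.926% to 1.29% in the mutant. Chlorophyll a-b binding proteins, 16 rows marking green tissue, took at most 0.0129% of any library. In bulk grain, fewer cells of a type and less RNA per cell cannot be told apart.

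The 100 members jointly took 1.91%, 0.573% and 0.866% of the wild type libraries, and 0.327%, 0.483% and 0.823% of the sg34 libraries. The library lowest in storage protein transcripts was thus the highest in translation factor transcripts, and sg34 replicate 1, highest in the former, was lowest in the latter; the part of this in the differences between the lines was not tested. The groups overlapped. Summed TPM came to 10897 ± 6751 in the wild type and 5370 ± 2481 in sg34 (SD, n = 3), a log2 ratio of -1.02, or -0.40 without wild type replicate 1.

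**Figure D1:**
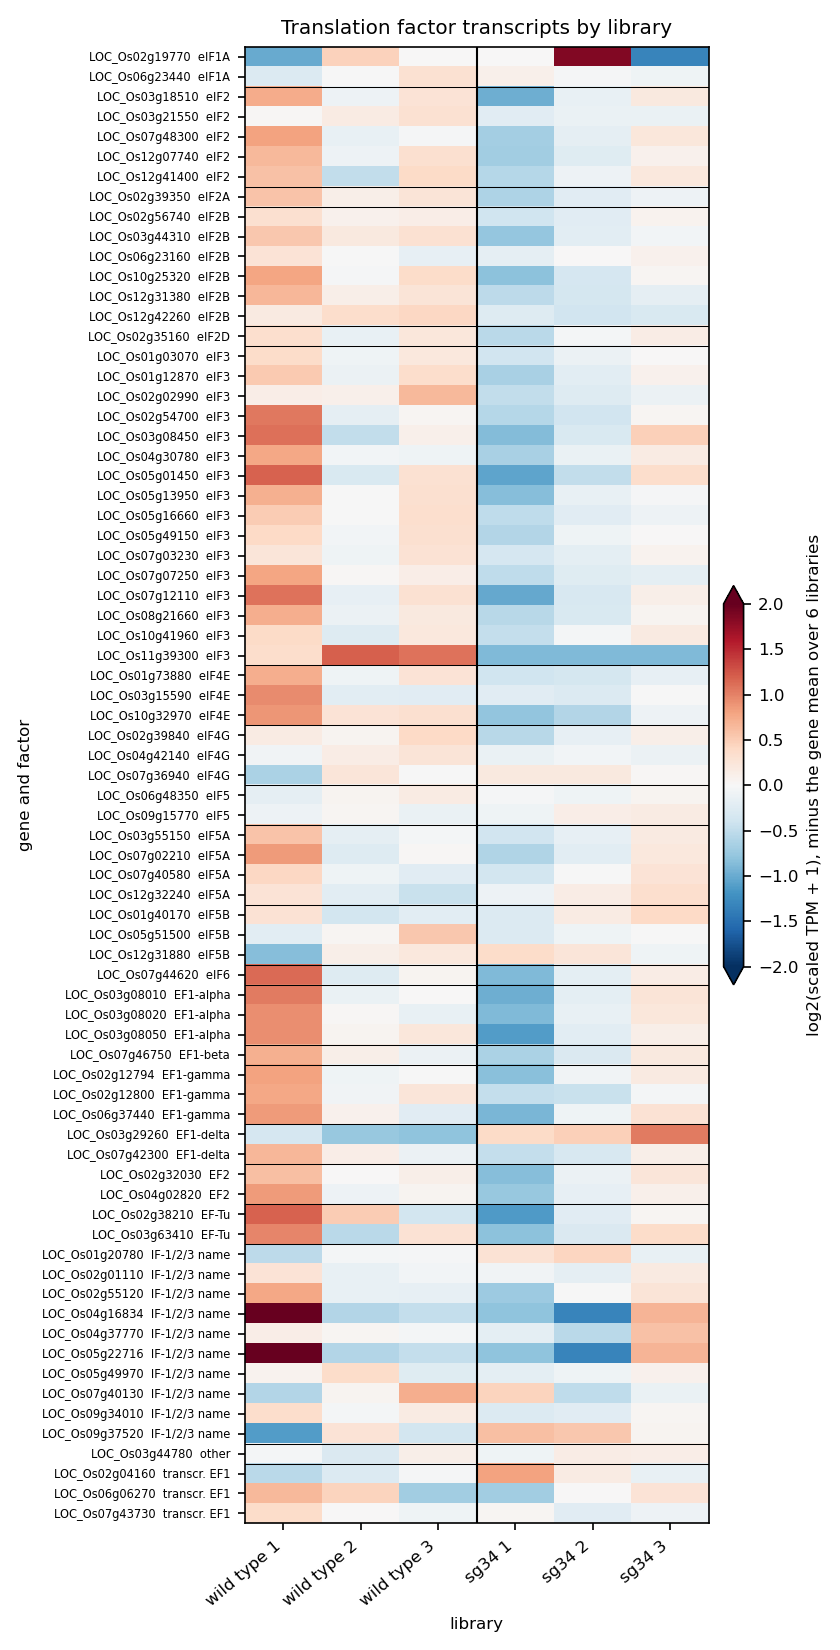
Colour gives log2(scaled TPM + 1) of each of the 74 tested members minus its own mean over the 6 libraries, with genes in rows grouped by factor and libraries in columns, wild type left of the line and sg34 right. Wild type replicate 1 was the highest library for 50 of 74 members, or 67.6%, against 30.6% of all tested rows. Most rows are red there, while EF1-delta 2 and the eIF3I-named row LOC_Os11g39300 run differently.

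Between the lines, 1 member rose, the elongation factor gene EF1-delta 2. The test also called 1 lower, a weak row named eIF3 subunit I, which was at 1 TPM or more in the wild type only and so entered the test through the line where it was high; it was the only such row among the 74. Libraries were first brought to a common scale with factors from a trimmed mean over all tested rows. The difference was then taken as sg34 minus wild type of log2(scaled TPM + 1), which understates the change of low genes, and limma tested it with Benjamini-Hochberg adjustment at 0.05 over all 16917 tested rows. Over those rows 1.89% were called higher and 1.87% lower, so that 1 of 74 in each direction is close to the background. An unadjusted limma p under 0.05 was found for 12 members, or 16.2%, against 17.3% of all tested rows.

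Most other members had lower means in sg34 without passing the test. The log2 difference was below 0 for 63 of 74 members, or 85.1%, against 50.7% of all tested rows, and its median was -0.42 for the members and -0.01 for all tested rows. The shift leaned on 1 library: without wild type replicate 1 the median was -0.20, with 57 of 74 below 0. Members were 0.54 log2 units higher in wild type replicate 1 than in the mean of the other wild type libraries, as a median, where all tested rows stood at -0.01. Scaled values of the lines did not overlap for 13 members that were lower in sg34, or 17.6%, against 12.7% of all tested rows. They also did not overlap for 1 of the 74 that was higher, against 10.9% of all tested rows.

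**Figure D2:**
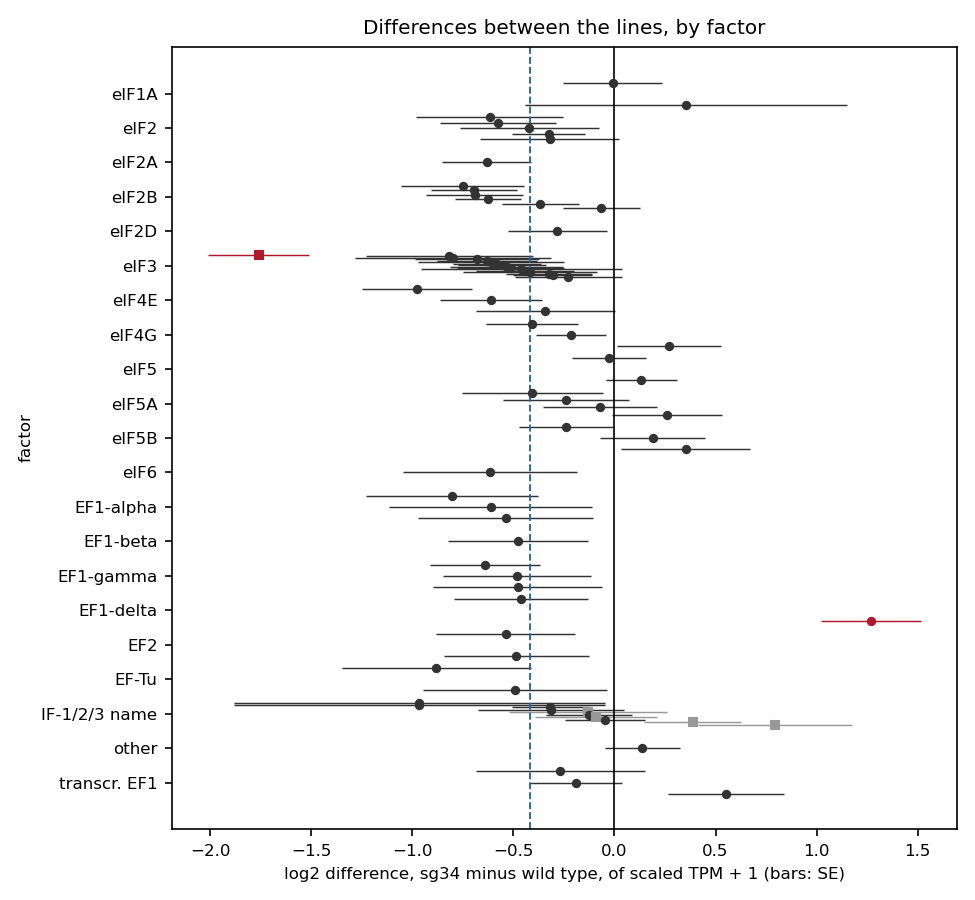
Each point is the log2 difference, sg34 minus wild type, of 1 tested member with its SE, in rows by factor; squares mark members with no matching domain, red marks adjusted p under 0.05, and the dashed line is the median of -0.42. All 16 eIF3 rows and all 6 eIF2B rows lie left of 0, and EF1-delta 2 stands alone at 1.27.

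EF1-delta 2 (LOC_Os03g29260, chromosome 3) encodes a nucleotide exchange subunit of elongation factor 1. Its TPM were 48.3, 18.4 and 25.5 in the wild type libraries, and 34.4, 40.2 and 82.8 in the sg34 libraries. In deposited TPM the lines overlapped, through wild type replicate 1. After scaling they did not, with 29.1, 21.6 and 20.8 in the wild type and 49.0, 51.8 and 77.7 in sg34. The log2 difference was 1.27 ± 0.25 (SE, limma adjusted p = 0.0443), higher in 3 of 3 sg34 libraries. The call sat near the threshold and was lost when TPM were not rescaled (0.76, adjusted p = 0.380), with scaling factors from all rows (0.0542) and when low rows were kept in the test (0.0852). The call also failed on leaving out any 1 of 5 libraries, those of the wild type numbered 2 and 3 and each of sg34 (0.0953 to 0.154). Without wild type replicate 1 it was 1.42 (adjusted p = 0.0317), and over all alternatives the adjusted p ran from 0.00327 to 0.380. The low end came from a fit with library weights, in which sg34 replicate 2 counted most.

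Its sister gene EF1-delta 1 (LOC_Os07g42300) was far more abundant, with 1336, 473.6 and 573.2 TPM in the wild type libraries and 254.1, 313.8 and 585.3 TPM in sg34. It differed by -0.46 ± 0.33 on the log2 scale (SE, limma adjusted p = 0.496), and the lines overlapped. The ratio of the sister genes inside a library needs no scaling factor. EF1-delta 2 stood at 3.61%, 3.88% and 4.45% of the EF1-delta 1 level in the wild type libraries, and at 13.5%, 12.8% and 14.1% in the sg34 libraries. Every sg34 library lay above every wild type library, wild type replicate 1 lay with its own line, and the mean ratio was 3.39 times as high in sg34.

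The ratio of EF1-beta (LOC_Os07g46750) to EF1-delta 1, both exchange subunits, was 70.6% ± 1.79 in the wild type and 69.8% ± 5.74 in sg34 (SD, n = 3). EF1-delta 2 relative to EF1-beta was 5.65% ± 0.711 in the wild type and 19.4% ± 1.79 in sg34 (SD, n = 3), again without overlap. These ratios were chosen after the values had been seen and carry no test. Whether the EF1-delta genes share reads was not measured.

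**Figure D3:**
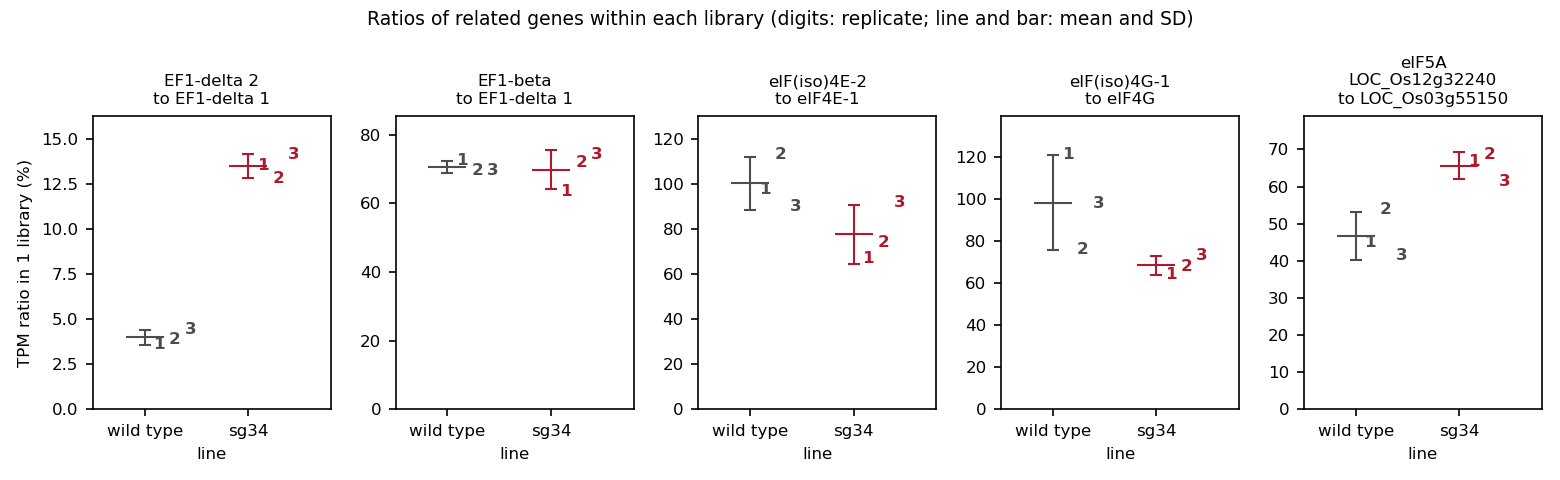
Each panel gives the TPM of 1 gene as a percentage of a related gene in the same library, with digits for replicates and a line and bar for the mean and SD of 3 libraries; axes start at 0. EF1-delta 2 to EF1-delta 1 separates the lines, at 3.61% to 4.45% and 12.8% to 14.1%, while EF1-beta to EF1-delta 1 overlaps.

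Cytosolic elongation factor genes, EF1-delta 2 among them, held a large share of the members' transcripts. The 13 cytosolic EF1 and EF2 rows held 60.9%, 55.5% and 53.0% of member TPM in the wild type libraries and 45.6%, 52.6% and 56.8% in sg34. Of their 11 tested rows 10 had a log2 difference below 0. After scaling, all 10 were highest in wild type replicate 1, against 30.6% of all tested rows. EF1-delta 2 was the exception in both.

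EF1-alpha was the most abundant member. LOC_Os03g08010 had 4045, 918.8 and 1468 TPM in the wild type libraries and 422.8, 802.2 and 1515 TPM in sg34. The lines overlapped widely. sg34 differed by -0.61 ± 0.50 on the log2 scale (SE, limma adjusted p = 0.549), with a 95% interval from -1.81 to 0.59, and by -0.24 when wild type replicate 1 was left out. The neighbouring copies LOC_Os03g08020 and LOC_Os03g08050, with the same protein match, had differences of -0.54 and -0.80. Within a library LOC_Os03g08020 stood at 33.4% to 42.0% of LOC_Os03g08010, and LOC_Os03g08050 at 33.3% to 42.5%; such close copies may share reads, so each value is uncertain.

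EF2, the translocase, was carried by LOC_Os02g32030 with 805.2, 271.1 and 424.8 TPM in the wild type and 123.7, 228.1 and 400.4 TPM in sg34. The difference was -0.49 ± 0.36 (SE, limma adjusted p = 0.507). LOC_Os04g02820 stood at 24.8% to 32.4% of it in every library, and the 2 other EF2-named rows were under the filter. EF1-beta had a difference of -0.48 ± 0.35 (SE, limma adjusted p = 0.502). The scaffold subunit EF1-gamma 3 (LOC_Os06g37440), with 525.2, 157.6 and 180.8 TPM in the wild type and 64.4, 126.4 and 226.9 TPM in sg34, had one of -0.48 ± 0.42 (SE, limma adjusted p = 0.572).

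**Figure D4:**
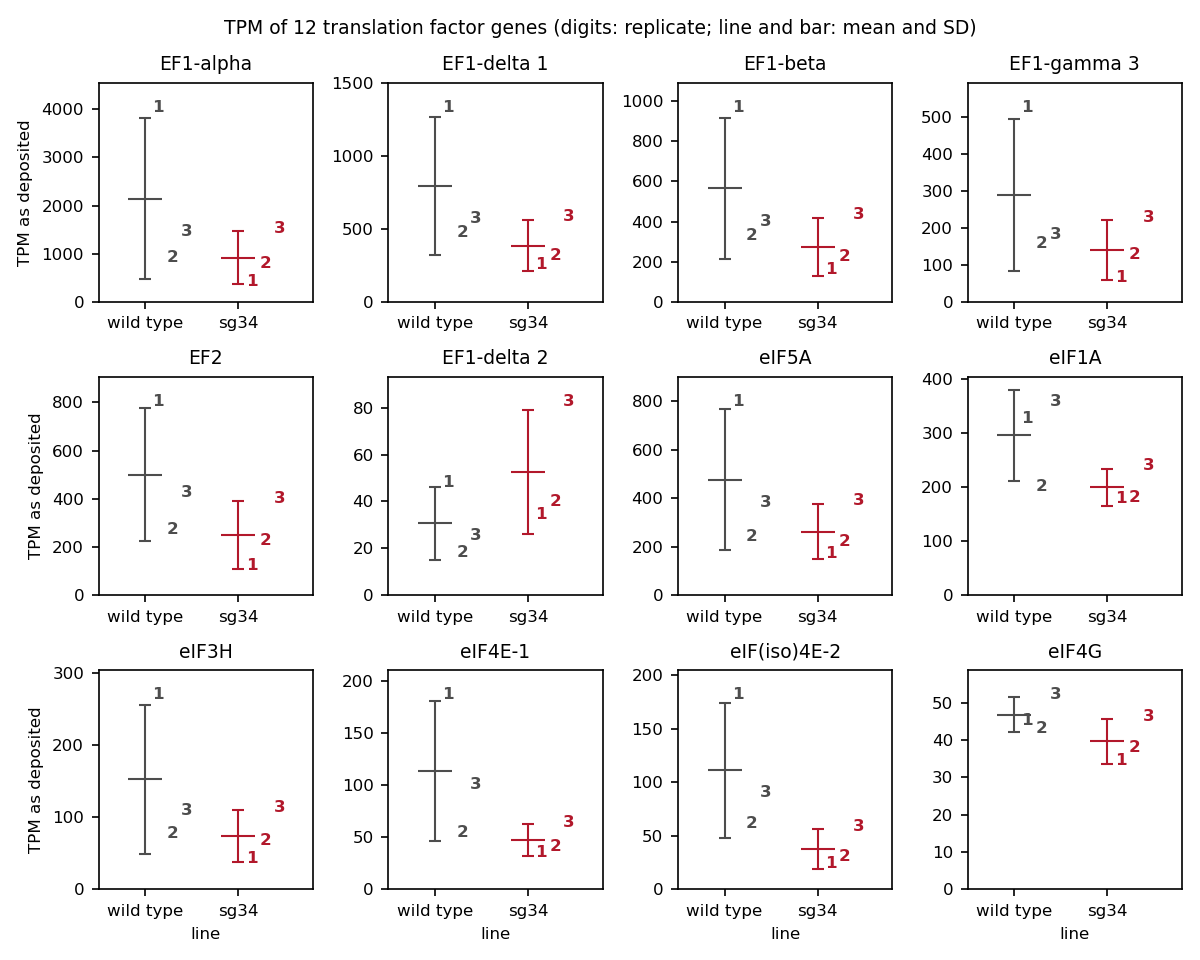
Deposited TPM of 12 genes in each library, digits marking the replicate and the line and bar the mean and SD of 3 libraries; each axis starts at 0. Wild type replicate 1 is the highest library for EF1-alpha, EF2 and eIF3H, eIF4G ranges only from 34.5 to 52.2 TPM, and in EF1-delta 2 sg34 has the higher mean, 52.4 against 30.7 TPM.

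eIF3 was represented by 12 subunits, A to L, and by 16 tested rows. All 16 differences were below 0, with a median of -0.55. By limma 1 of the 16 passed, LOC_Os11g39300, which has no matching domain and entered the test through the wild type alone. An unadjusted limma p under 0.05 was found for 4, or 25%, that row among them, against 17.3% of all tested rows. For the 15 rows with a matching domain, mean TPM lay between 21.7 and 112.9 and differences between -0.82 and -0.23 (limma adjusted p from 0.246 to 0.673). Scaled values of the lines did not overlap for 5 of the 16, or 31.25%, lower in sg34, against 12.7% of all tested rows. LOC_Os11g39300 is again among the 5.

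Subunit H (LOC_Os04g30780) was the most abundant, with 269.4, 77.5 and 108.8 TPM in the wild type libraries and 42.3, 66.7 and 112.9 TPM in sg34, a difference of -0.42 ± 0.33 (SE, limma adjusted p = 0.538). It held 9.67% to 12.8% of the eIF3 total in every library. Subunit E (LOC_Os07g12110) had 246.1, 52.5 and 105.1 TPM in the wild type and 23.6, 43.0 and 79.9 TPM in sg34, a difference of -0.82 ± 0.41 (SE, limma adjusted p = 0.365). Leaving out wild type replicate 1 gave -0.47. The lines overlapped for both genes.

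The row called lower, LOC_Os11g39300 on chromosome 11, is named eIF3 subunit I but has no domain listed, and its nearest protein is a hypothetical one of the same locus. It had 2.24, 2.75 and 3.55 TPM in the wild type libraries and was listed at 0 in all 3 sg34 libraries. No fold is given against a group listed at 0. On the log2(scaled TPM + 1) scale the difference was -1.76 ± 0.25 (SE, limma adjusted p = 0.0116). Since the row passed the filter through the wild type alone, it could hardly enter the test without differing; with no filter the adjusted p was 0.0292. The call was lost without wild type replicate 3 or any 1 sg34 library (0.0517 to 0.0674). Over all alternatives the adjusted p ran from 0.000198, with library weights, to 0.0717. The row was outside the test when at least 5 TPM were required.

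The main eIF3 subunit I genes, LOC_Os05g16660 and LOC_Os08g21660, were present in every library. They had 109.2, 38.6 and 70.7 TPM and 95.1, 26.9 and 48.2 TPM in the wild type libraries, and the row called lower came to 1.10%, 4.20% and 2.99% of their sum. In sg34 they had 22.5, 30.2 and 45.2 TPM and 16.2, 21.3 and 38.1 TPM.

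eIF2B, the exchange factor that recharges eIF2, had all 6 rows below 0, with a median difference of -0.66, and -0.53 without wild type replicate 1. By limma 0 of the 6 passed, 4 had an unadjusted p under 0.05, and for 4 the scaled values of the lines did not overlap, against 17.3% and, for rows lower in sg34, 12.7% of all tested rows. The smallest adjusted p was 0.108, for a delta subunit gene (LOC_Os12g42260) with 8.81, 5.16 and 7.85 TPM in the wild type and 2.57, 2.54 and 3.74 TPM in sg34, a difference of -0.63 ± 0.16 (SE). With library weights, which favour libraries close to their group, its limma adjusted p was 0.00537, a setting that called 10.5% of all tested rows lower and 12.6% higher. There sg34 replicate 2 had a weight of 8.97 and the other libraries 0.215 to 2.08, so the sg34 side leaned on 1 library. The most abundant eIF2B gene, for subunit gamma (LOC_Os06g23160), stood apart from the others at -0.07 ± 0.19 (SE, limma adjusted p = 0.878); its sign turned without wild type replicate 1 (0.06).

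eIF2 itself had 5 tested rows with differences from -0.62 to -0.32 (limma adjusted p from 0.362 to 0.648), 0 of them with an unadjusted p under 0.05. The most abundant, eIF2-beta (LOC_Os03g21550), had 124.3, 70.5 and 111.7 TPM in the wild type and 44.1, 52.4 and 71.6 TPM in sg34, a difference of -0.33 ± 0.18 (SE, limma adjusted p = 0.397). eIF2A (LOC_Os02g39350), which in mammals can bring the initiator transfer RNA by another route, had 49.5, 18.2 and 29.0 TPM in the wild type and 8.71, 12.9 and 19.6 TPM in sg34. Its difference was -0.63 ± 0.22 (SE, limma adjusted p = 0.214), and no scaled value overlapped for either gene. eIF2D (LOC_Os02g35160) was at -0.28 ± 0.25 (SE, limma adjusted p = 0.571).

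Among the cap-binding factors, the plant isoform eIF(iso)4E-2 (LOC_Os10g32970) had the lowest difference of any member with a matching domain. It had 181.9, 61.1 and 90.4 TPM in the wild type libraries and 23.8, 30.4 and 59.0 TPM in sg34. Every sg34 library was below every wild type library. The difference was -0.98 ± 0.27 (SE), with limma adjusted p = 0.130, so it did not pass; the adjusted p was 0.0111 with library weights and up to 0.434 elsewhere, and the difference was -0.77 without wild type replicate 1.

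eIF4E-1 (LOC_Os01g73880), the standard cap-binding protein, had 186.4, 53.9 and 100.02 TPM in the wild type and 35.6, 41.0 and 64.1 TPM in sg34. Its difference was -0.61 ± 0.25 (SE, limma adjusted p = 0.282), with adjusted p from 0.0276, with library weights, to 0.636 over the alternatives. The isoform stood at 97.6%, 113.3% and 90.3% of eIF4E-1 in the wild type and 66.9%, 74.1% and 92.1% in sg34, which overlap. The related cap-binding protein NCBP (LOC_Os03g15590) was at -0.34 (limma adjusted p = 0.626).

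The scaffold eIF4G (LOC_Os07g36940) varied little, with 45.1, 43.1 and 52.2 TPM in the wild type and 34.5, 38.1 and 46.3 TPM in sg34. Its scaled difference was 0.27 ± 0.26 (SE, limma adjusted p = 0.606) and turned to -0.24 without rescaling. Its isoform eIF(iso)4G-1 (LOC_Os04g42140) had a difference of -0.21 (limma adjusted p = 0.540). Within a library the isoform stood at 121.1%, 75.7% and 97.5% of eIF4G in the wild type and at 64.0%, 67.6% and 73.1% in sg34. The lines did not overlap. Of the 20 ratios of related genes computed, 5 did not overlap, and that count has no test. The ratios of EF1-delta 2 to EF1-delta 1 and to EF1-beta are among the 5. For single genes, scaled values did not overlap for 10.9% of all tested rows, higher in sg34, and for 12.7%, lower in sg34. No such share was computed over other gene pairs.

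eIF5A, which keeps ribosomes moving over difficult peptides and carries the modified residue hypusine, had 4 tested genes with differences from -0.41 to 0.26 (limma adjusted p from 0.567 to 0.912). LOC_Os03g55150, the most abundant, had 800.3, 241.8 and 384.5 TPM in the wild type and 173.8, 223.3 and 390.4 TPM in sg34, a difference of -0.24 ± 0.31 (SE, limma adjusted p = 0.706). LOC_Os12g32240 stood at 44.8%, 53.7% and 41.4% of it in the wild type libraries and at 66.9%, 68.7% and 61.5% in sg34. This ratio thus lay higher in every sg34 library, 65.7% ± 3.74 against 46.7% ± 6.34 (SD, n = 3). It is 1 of the 5 ratios without overlap among the 20 computed, and carries no test. The ratios of LOC_Os07g40580 and LOC_Os07g02210 to LOC_Os03g55150 overlapped between the lines. Whether the eIF5A genes share reads was not measured.

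The main eIF1A gene (LOC_Os06g23440), which helps scan for the start codon, had 326.0, 201.1 and 358.9 TPM in the wild type and 179.6, 180.6 and 239.2 TPM in sg34. Its difference was -0.01 ± 0.25 (SE, limma adjusted p = 0.989), with a 95% interval from -0.59 to 0.58. The smaller eIF1A gene (LOC_Os02g19770) ranged from 8.84 TPM in sg34 replicate 3 to 64.1 TPM in sg34 replicate 2, with a difference of 0.36 ± 0.80 (SE, limma adjusted p = 0.838) that turned to -0.14 without rescaling.

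The GTPase activator eIF5 (LOC_Os06g48350) was at -0.03 ± 0.18 and the subunit-joining factor eIF5B (LOC_Os05g51500) at -0.24 ± 0.23 (SE, limma adjusted p = 0.948 and 0.612). eIF6 (LOC_Os07g44620), which keeps ribosomal subunits apart, was at -0.62 ± 0.43 (SE, limma adjusted p = 0.487), with 223.4 TPM in wild type replicate 1 against 42.8 and 76.7 TPM in the other wild type libraries. LOC_Os03g44780 is named for an EF-Tu GTP-binding domain, and the human protein of that name acts in ribosome maturation. It was at 0.14 ± 0.19 (SE, limma adjusted p = 0.719), or -0.31 without rescaling.

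Chloroplast EF-Tu (LOC_Os02g38210) had 87.9, 27.9 and 21.2 TPM in the wild type libraries and 6.86, 14.9 and 24.97 TPM in sg34, a difference of -0.88 ± 0.47 (SE, limma adjusted p = 0.383). Leaving out wild type replicate 1 gave -0.50. Mitochondrial EF-Tu (LOC_Os03g63410) had 92.9, 16.1 and 41.9 TPM in the wild type and 10.8, 17.5 and 38.5 TPM in sg34, a difference of -0.49 ± 0.45 (SE, limma adjusted p = 0.595). Both overlapped between the lines.

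The chloroplast IF-1 rows LOC_Os05g22716 and LOC_Os04g16834 had the same value in every library, 82.5, 4.20 and 6.63 TPM in the wild type and 2.88, 1.99 and 14.2 TPM in sg34. They carry the same plastid description and are not separate measurements. Their difference of -0.96 ± 0.92 (SE, limma adjusted p = 0.606) turned to 0.06 without wild type replicate 1, and leaving out each of the other libraries gave down to -1.53.

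**Figure D5:**
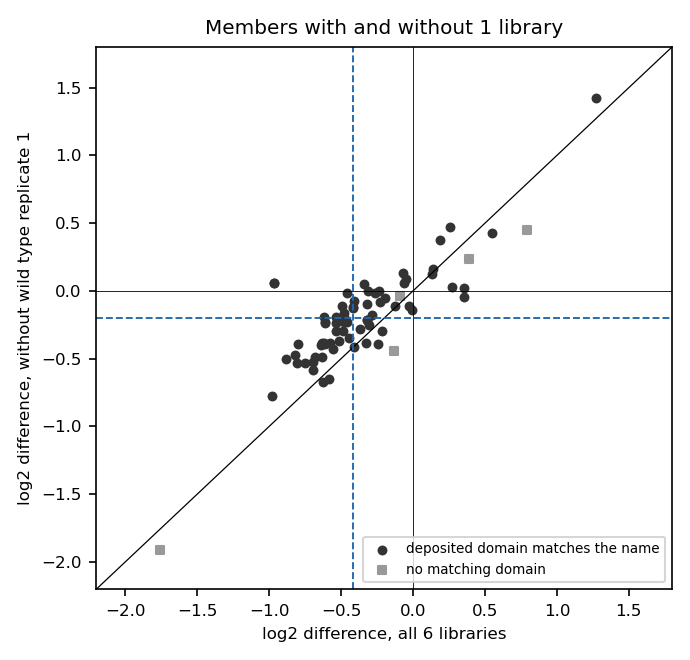
Each point is the log2 difference of 1 tested member, sg34 minus wild type, from all 6 libraries on the x axis and without wild type replicate 1 on the y axis; the diagonal marks equal values and dashed lines the medians of -0.42 and -0.20. Most points left of 0 lie above the diagonal, and 66 of 74 members have the same sign in both.

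Among the 5 tested rows whose domains did not match, 3 differences were below 0 and 2 above. None of the 5 was highest in wild type replicate 1 after scaling, nor was any tested row named eIF1A, eIF4G, eIF5 or eIF5B. Over all tested rows 30.6% were highest there, so none in groups this small says little. LOC_Os09g37520, named IF-2, has plant domains of unknown function and matches an Arabidopsis protein, NRG2, known from nitrate regulation. It had 80.6, 109.5 and 100.8 TPM in the wild type and 113.9, 119.1 and 117.1 TPM in sg34, and its difference of 0.79 ± 0.38 (SE) did not pass (limma adjusted p = 0.345, and 0.0328 with library weights to 0.690 over the alternatives). LOC_Os01g20780, named IF-2 with a formin-like protein as its nearest match, was at 0.39 ± 0.24 (SE, limma adjusted p = 0.440), or -0.13 without rescaling.

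The transcription elongation factor 1 homologs LOC_Os07g43730 and LOC_Os02g04160 were at -0.19 ± 0.23 and 0.55 ± 0.29 (SE, limma adjusted p = 0.683 and 0.373). The third homolog, LOC_Os06g06270, was at -0.27 ± 0.42 (SE, limma adjusted p = 0.761). With all 3 homologs and the rows without a matching domain left out, 66 rows remained. Of these 58 were below 0, with a median of -0.46, or -0.22 without wild type replicate 1. The 66 include LOC_Os03g44780 and the chloroplast IF-1 rows LOC_Os05g22716 and LOC_Os04g16834, which are not separate measurements.

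Other genes of protein synthesis, from a list by description, held 122 rows, of which 106 were tested. Of these 85, or 80.2%, had a difference below 0, against 50.7% of all tested rows. The median was -0.32, where that of all tested rows was -0.01. Here too the shift leaned on 1 library: without wild type replicate 1 the median was -0.18, with 71 below 0. By limma 1 was called higher and 1 lower, against 1.89% and 1.87% of all tested rows. An unadjusted p under 0.05 was found for 11, or 10.38% against 17.3% of all tested rows. Both called rows reached 1 TPM in 1 line only and so entered the test through the line where they were high. The row called higher was LOC_Os02g18180, named ABC transporter E family member 2, a family that in yeast recycles ribosomes after termination. It had 0.02, 0.04 and 0.12 TPM in the wild type and 2.22, 1.75 and 2.38 TPM in sg34, a difference of 1.75 ± 0.17 (SE, limma adjusted p = 0.00248, or 0.00706 with no filter). The other tested gene of that name, LOC_Os11g34350, was far more abundant. It had 105.3, 61.65 and 59.9 TPM in the wild type and 46.8, 55.85 and 88.2 TPM in sg34. Its difference was 0.27 ± 0.22 (SE, limma adjusted p = 0.544).

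The row called lower was a tyrosine--tRNA ligase gene (LOC_Os08g09260), of the enzymes that load amino acids onto transfer RNA. It had 3.62, 1.17 and 1.78 TPM in the wild type and 0.18, 0.19 and 0.20 TPM in sg34, a difference of -1.11 ± 0.18 (SE, limma adjusted p = 0.0208, or 0.0339 with no filter). That call was lost without rescaling (0.0682) and without wild type replicate 3 or any 1 sg34 library (0.0608 to 0.114). It was 1 of 52 tested tRNA ligase rows, of which 45 were below 0, or 37 without wild type replicate 1. The other tested tyrosine--tRNA ligase rows were more abundant and did not pass. Their differences ran from -0.64 to 0.16 (limma adjusted p from 0.363 to 0.760). The 3 tested deoxyhypusine enzyme rows, which make the hypusine of eIF5A, were all below 0 with a median of -0.54, and 0 passed by limma, with 2 at an unadjusted p under 0.05, where 17.3% of all tested rows were. The list held 24 tested rows with polyadenylate-binding protein in the name, among them RBP45 and RBP47 proteins and proteins that interact with a polyadenylate-binding protein. Of these 24, 17 were below 0, or 15 without wild type replicate 1, and 0 passed by limma. An unadjusted p under 0.05 was found for 3, or 12.5%, of which 2 were lower and 1 higher in sg34. The lower ones were LOC_Os06g11620, named polyadenylate-binding protein 2, and LOC_Os08g02330, named for interacting protein 11. The higher one, LOC_Os06g09890, is named for interacting protein 7 and differed by 1.07 (limma adjusted p = 0.0814).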

How the data were processed

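The authors deposited TPM per gene for 6 libraries. The software listed, per the submitters' processing notes, was RSEM, Bowtie2, StringTie, HISAT2 2.1.0 and DESeq2 1.12.4; which step each served is not stated. The notes name mm10, a mouse build, so the rice build is not given in the sources used here. Columns named sg31 to sg33 were read as sg34 replicates 1 to 3, the only mutant. TPM sums were 967528 to 991476 per library.

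Scaling used TMM factors (a trimmed mean of log ratios, without weights) from the tested rows (trims of 30% of M and 5% of A values). limma 3.58.1 in R 4.3.3 with a mean-variance trend tested log2(scaled TPM + 1), after checking on simulated data. Rows kept at least 1 TPM in 3 libraries, and that set was held when a library was left out, a choice also made after first results. Alternatives changed the scaling, filter, pseudocount, trend, library weights, replicate block and libraries. Factors from all rows were tried first. The factors described were taken up after those results had been seen, to follow an earlier account of these data. Members and lists were chosen with earlier results of these data known. Named genes were members with adjusted p under 0.05, the most abundant of each factor, and the 6 highest and 6 lowest differences with a mean of at least 10 TPM in the higher line; others named were chosen after their values were seen. The domain check was set up after the table had been read. The reference table here held no locus ID of this annotation and no sequences, so none are shown.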

Additional observations from a re-analysis of the deposited data

How the results depend on the processing

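Counts of called members moved with the settings, against 1 higher and 1 lower. The higher count was 0 without rescaling, with TMM factors from all rows (EF1-delta 2 adjusted p = 0.0542; the factors tried first) and with no filter on low values, which takes its factors from all rows too (0.0852). The lower count was 0 with at least 5 TPM in 3 libraries, where the row was not tested. With the replicate block both counts were 0 (adjusted p = 0.216 for EF1-delta 2 and 0.0717 for LOC_Os11g39300), and with library weights they were 2 higher and 10 lower, or 2.70% and 13.5% of members against 12.6% and 10.5% of all tested rows; the cause was not tested. The counts ran from 0 to 1 in either direction on leaving out 1 library at a time. Whether libraries pair by number is not in the labels. The deviations from the line means had correlations of -0.54, 0.003 and -0.37 for numbers 1, 2 and 3. Wild type replicate 1, which stood apart, enters the wild type mean, so these correlations cannot decide on pairing.

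The median of members was -0.93 without rescaling, where that of all tested rows was -0.43, and -0.59 to -0.20 when a library was left out. The log2 ratio of summed TPM was -0.43 with scaled TPM and -1.44 to -0.40 without a library. Signs turned without rescaling for eIF4G (-0.24), LOC_Os03g44780 (-0.31), LOC_Os02g19770 (-0.14) and LOC_Os01g20780 (-0.13), with at least 5 TPM for LOC_Os06g23440 (0.025) and LOC_Os06g48350 (0.0053), and with library weights for LOC_Os06g23160 (0.10). Without a library, LOC_Os06g23160 ranged from -0.17 to 0.062, LOC_Os05g22716 and LOC_Os04g16834 from -1.53 to 0.0595, LOC_Os02g19770 from -0.48 to 1.124, LOC_Os06g23440 from -0.14 to 0.14 and LOC_Os06g48350 from -0.11 to 0.049. Depth is unknown, so no counting error is given.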
